A study of Mus musculus with 17 samples.

Results

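The comparison sets 5 arrays of leukemia grown from transformed DN2 cells against 5 arrays of leukemia grown from transformed granulocyte-macrophage progenitors (GMP). These 10 arrays, of 17 in the series, were taken by their titles alone. DN2 cells are early thymic T-cell progenitors that carry neither CD4 nor CD8, and GMP are marrow progenitors of neutrophils and monocytes. Both were taken from CD45.2 wildtype C57/Bl6 donors, transformed with Myc and Bcl2, and injected into irradiated recipients of 4 to 8 weeks of age (total body dose 4.5 to 6 Gy). The arrays of both groups are labelled as sorted spleen cells of the leukemic recipients, positive for CD11b and Gr1 and negative for CD3, CD4 and CD8. The sources used here do not give whether a leukemia is a single clone, whether recipients were pooled or how the transgenes were carried. Untransformed DN2 cells of the thymus (2 arrays) and GMP of the marrow (2 arrays) served as context, and 3 arrays labelled as leukemia from LSK cells, a marrow fraction enriched for stem cells, entered the fit. Nothing in the labels says that the arrays of a group come from separate mice, so p-values measure only the spread between these samples.

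GMP normally switch on C/EBP and Ets factors, receptors for granulocyte growth factors and microbial products, and the enzymes of the oxidative burst as they become granulocytes. DN2 cells lie at the point where thymic progenitors close the myeloid and stem-cell programmes and, under Notch, GATA3, TCF1 and BCL11B, commit to T cells. Related factors such as EOMES, T-bet and the Id proteins steer lymphoid cells towards NK and innate-like fates. The comparison asks how far the cell of origin is still seen in leukemias driven by the same oncogenes. Genes beyond granule, CD3 and NK markers are described here in the order of surface molecules, transcription factors, metabolic enzymes and signalling proteins.

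Values are log2 expression values of 1 probe set per gene, with array medians from 3.80 to 3.86. A value close to that median is background, so differences against a group at that level are compressed. Differences are DN2-derived minus GMP-derived, with the standard error (SE) and the adjusted p of limma. Calls required that adjusted p to lie below 0.05. Of 11629 genes tested, 4628 (39.8%) were called, 2438 higher (21.0%) and 2190 lower (18.8%) in the DN2-derived leukemia. In 1637 genes (14.1%) that were called higher and 1514 (13.0%) that were called lower, no DN2-derived array overlapped a GMP-derived array. These shares are the background for every count of members below, and the median difference of all genes tested was 0.03.

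The DN2-derived arrays went against the label of a myeloid sort. Itgam, the gene of CD11b, read 7.17, 3.47, 7.38, 3.24 and 3.42 in DN2-derived arrays 1 to 5 and 9.23, 8.15, 9.88, 8.06 and 9.95 in GMP-derived arrays 1 to 5. Of the DN2-derived arrays 1 and 3 alone stood above background. Cd3e, the gene of a CD3 chain that the sort was to exclude, read 7.79 to 9.06 in the DN2-derived arrays and 5.05 to 5.24 in the GMP-derived arrays. Mycn had means of 11.87 ± 0.20 and 12.55 ± 0.43 (SD, n = 5 each) against 4.36 ± 0.22 and 4.27 ± 0.44 in healthy DN2 and GMP (SD, n = 2 each). Its difference between the leukemias of -0.67 ± 1.14 (adjusted p = 0.692) was not called. Bcl2 had a difference of -1.08 ± 0.78 (adjusted p = 0.303) that was not called, and its other probe set gave a difference of 2.38, so its direction depended on the probe set. In the 3 arrays labelled LSK-derived Mycn read 12.82, 4.91 and 4.22 and Bcl2 11.30, 6.75 and 5.27. In Mycn, arrays 2 and 3 were near the healthy cells. The healthy means of Bcl2 were 6.88 in DN2 and 6.20 in GMP. The array titles name Myc and Bcl2 and do not name Mycn. Without the LSK-labelled arrays, in a fit of the 10 DN2-derived and GMP-derived arrays alone, 4329 genes were called in place of 4628, and each gene named below as called was called in the same direction. In that fit limma called Mycn and Bcl2 as lower in the DN2-derived arrays (adjusted p = 0.0264 for Mycn and 0.00939 for Bcl2). Eif2s3y, which is Y-linked, was at 10.05 in DN2-derived array 2 and 9.90 in GMP-derived array 2. It was between 2.72 and 2.92 in the other 8 DN2-derived and GMP-derived arrays. In the 3 LSK-labelled arrays it read 9.90, 9.60 and 8.93.

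The marker lists of granules, the T-cell receptor complex and NK cells moved with the groups. All 21 late neutrophil granule genes tested were lower in the DN2-derived arrays, where their mean ran from 4.23 to 6.22, against 11.91 to 12.81 in the GMP-derived arrays. Of 15 genes of the T-cell receptor complex 11 were higher, and of 16 NK and cytotoxic genes 14 were higher. The NK list averaged 10.70 in DN2-derived array 1 and 10.74 in array 3, between 7.38 and 8.50 in the other DN2-derived arrays and 3.57 to 4.05 in the GMP-derived arrays. Monocyte, macrophage and dendritic genes had a mean of 6.77 in DN2-derived array 1, 3.69 to 5.30 in the other DN2-derived arrays and 4.86 to 5.55 in the GMP-derived arrays. Of 17 such genes tested 4 (23.5%) were lower and none higher. Of 10 B-cell genes 1 was higher, and of 11 megakaryocyte and mast cell genes 2 were lower. No erythroid (6 tested) or stromal and endothelial gene (2 tested) was called. The primary granule list averaged 9.95 in both GMP-derived array 2 and array 4, and between 7.35 and 8.05 in the remaining GMP-derived arrays. The part of these cells in the differences below was not tested. In such bulk samples fewer cells of a type and less RNA per cell cannot be told apart. Each gene named below as called was also called, in the same direction, without DN2-derived arrays 1 and 3 and without GMP-derived arrays 2 and 4, apart from Npc2, whose values follow.

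Across 4 themes and 37 gene lists the direction of the calls differed by theme. Of 292 surface and cytokine genes tested 69 (23.6%) were higher and 104 (35.6%) lower. Of 211 transcription factor genes 64 (30.3%) were higher and 42 (19.9%) lower. Of 305 metabolic genes 34 (11.1%) were higher and 112 (36.7%) lower. Of 348 signalling genes 107 (30.7%) were higher and 93 (26.7%) lower. A gene passed the filter if any group mean lay above the median of the table. A member that passed only through the group where it is high had to differ, so the list counts below are descriptions. With both leukemia means above the median, the T-cell receptor list had 3 genes higher in place of 11 and the NK list 3 in place of 14. The primary granule list had 1 gene lower in place of 5. Counts of other lists that moved by over 1.5 times, with 5 or more calls in the main fit or the alternative, are given beside them. Moves among smaller counts are not given. The median differences of the themes, in the same order, were -0.13, 0.25, -0.25 and 0.12.

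**Figure D1:**
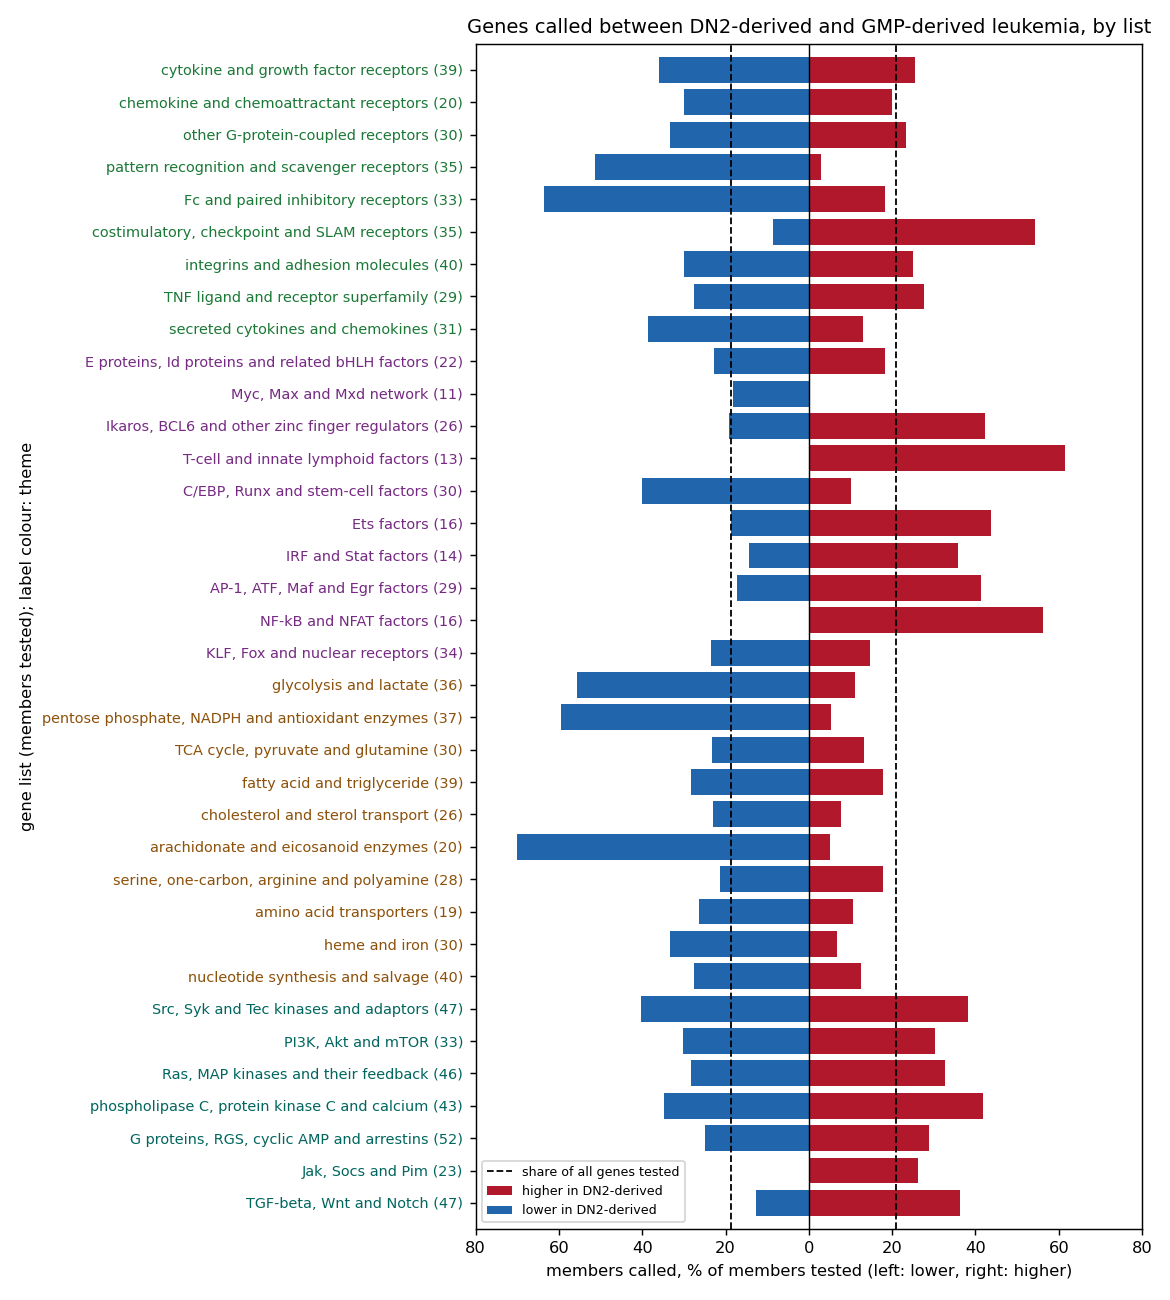
Share of tested members called higher (red, right) and lower (blue, left) in DN2-derived than in GMP-derived leukemia for 36 of the 37 gene lists, with the number tested in parentheses and dashed lines at the shares over all genes tested (21.0% and 18.8%). Label colours are surface (green), transcription factors (purple), metabolism (brown) and signalling (teal). Arachidonate enzymes reached 70.0% lower and T-cell and innate lymphoid factors 61.5% higher.

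Some surface lists had shares of calls in 1 direction above the background. Among 35 costimulatory, checkpoint and SLAM receptors 19 (54.3%) were higher and 3 (8.57%) lower, with a median difference of 1.06. Of these 35, 18 had both leukemia means above the median, and 8 of the 18 were higher. Without GMP-derived arrays 2 and 4, or with array weights, 5 genes of the list were lower in place of 3. Among 35 pattern recognition and scavenger receptors 1 was higher and 18 (51.4%) lower, with a median of -1.34. Only 21 of them had both leukemia means above the median, and of these 13 were lower and none higher. Among 33 genes listed as Fc and paired inhibitory receptors 6 were higher and 21 (63.6%) lower, with a median of -2.43. Both leukemia means lay above the median in 28 of them, of which 5 were higher and 19 lower.

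Cd2, an adhesion and costimulatory receptor of T and NK cells, read 10.94, 10.90, 11.19, 10.90 and 11.45 in DN2-derived arrays 1 to 5 and 3.28, 3.26, 3.29, 3.11 and 3.14 in GMP-derived arrays 1 to 5. The GMP-derived arrays were at background, the groups did not overlap and the difference was 7.86 ± 0.20 (adjusted p = 5.54e-13). Thy1, the Thy-1 antigen of thymocytes, read 10.74, 11.32, 11.30, 11.57 and 10.94 and 3.85, 3.95, 3.76, 5.19 and 3.59 in the same order. GMP-derived array 4 was the highest of its group and still below all DN2-derived arrays, with a difference of 7.11 ± 0.26 (adjusted p = 2.14e-11). Ccl5, a chemokine of activated T and NK cells, read 13.37, 12.33, 13.45, 12.99 and 12.72 against 4.22, 6.26, 4.46, 4.94 and 5.35. It was close to the top of the scale in all 5 DN2-derived arrays, with a difference of 7.93 ± 0.38 (adjusted p = 4.25e-10). Ifng, which encodes interferon gamma, read 11.04, 9.50, 9.88, 9.32 and 10.79 against 2.78, 2.59, 2.73, 2.79 and 2.60. All GMP-derived values were background, and the difference was 7.41 ± 0.42 (adjusted p = 3.08e-09).

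Trem3, a myeloid activating receptor, read 6.86, 3.08, 3.22, 3.48 and 2.88 in the DN2-derived arrays and 11.26, 11.04, 12.11, 11.02 and 11.73 in the GMP-derived arrays. DN2-derived array 1 alone was above background in its group, and the difference was -7.53 ± 0.75 (adjusted p = 1.35e-06). Fpr2, a receptor for formylated bacterial peptides, read 7.67, 3.16, 3.65, 3.73 and 3.32 against 11.99, 11.34, 12.69, 10.42 and 12.56. DN2-derived array 1 again stood above the other DN2-derived arrays and below all GMP-derived arrays, with a difference of -7.49 ± 0.78 (adjusted p = 2.31e-06). Cxcl2, a chemokine that attracts neutrophils, read 5.10, 4.48, 2.87, 3.33 and 5.30 against 10.96, 8.89, 11.54, 12.59 and 10.82. The lowest GMP-derived array was 2, the groups did not overlap and the difference was -6.74 ± 0.64 (adjusted p = 8.69e-07). Clec4d, a C-type lectin that binds fungal and mycobacterial glycolipids, read 4.67, 4.34, 4.20, 4.56 and 4.32 against 11.43, 10.11, 11.81, 10.20 and 12.10. The DN2-derived arrays were tight and low, including array 1, with a difference of -6.71 ± 0.52 (adjusted p = 8.75e-08).

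Growth factor and cytokine receptors were called in both directions. Of 39 tested, 10 (25.6%) were higher and 14 (35.9%) lower. Il2rb, the chain shared by the receptors of interleukins 2 and 15, differed by 5.45 ± 0.14 (adjusted p = 7.03e-13), and Il27ra by 4.76 ± 0.21 (adjusted p = 1.59e-10). Csf2rb, the common chain of the GM-CSF and interleukin 3 receptors, differed by -5.78 ± 0.52 (adjusted p = 4.62e-07), and the decoy receptor Il1r2 by -5.71 ± 0.53 (adjusted p = 6.13e-07). The chains of the interleukin 6 receptor went in opposite directions. Il6ra, which binds the ligand, read 6.44, 5.24, 3.11, 4.34 and 3.42 in the DN2-derived arrays and 9.55, 8.28, 8.71, 7.48 and 8.47 in the GMP-derived arrays, a difference of -3.99 ± 0.62 (adjusted p = 1.15e-04). Il6st, the signal transducer gp130, read 8.16, 8.86, 7.75, 8.51 and 9.20 and 3.68, 4.43, 3.81, 4.72 and 4.01, a difference of 4.36 ± 0.35 (adjusted p = 1.50e-07), although its less bright probe sets gave 0.30 and 1.25. Csf3r, the receptor for G-CSF, read 5.40, 4.96, 5.15, 4.50 and 4.38 and 11.17, 9.52, 11.20, 9.45 and 11.31, a difference of -5.65 ± 0.56 (adjusted p = 1.41e-06). Its DN2-derived values lay together between 4.38 and 5.40. Il6ra, Il6st and Csf3r were picked after their values were seen, as were the genes marked so below.

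Guidance and G-protein-coupled receptors changed member by member. Gpr183, an oxysterol receptor that guides lymphocytes, differed by 6.34 ± 0.43 (adjusted p = 2.27e-08), and Cxcr3, which guides T and NK cells, by 4.17 ± 0.41 (adjusted p = 1.28e-06). Ccr1, a chemokine receptor of myeloid cells, differed by -5.62 ± 0.55 (adjusted p = 1.25e-06). P2ry10, a lysophospholipid receptor, differed by 6.85 ± 0.46 (adjusted p = 1.98e-08) and the thrombin receptor F2r by 6.48 ± 0.36 (adjusted p = 2.67e-09). Hcar2, the niacin receptor, differed by -4.97 ± 0.56 (adjusted p = 5.39e-06), and the fatty acid receptor Gpr84 by -4.84 ± 0.66 (adjusted p = 3.37e-05). Of 20 chemokine and chemoattractant receptors 4 were higher and 6 lower, and of 30 other G-protein-coupled receptors 7 were higher and 10 lower (5 with both leukemia means above the median), with smaller excesses over the background than in the lists above.

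Cd14, the co-receptor for lipopolysaccharide, read 5.63, 3.85, 4.21, 4.82 and 6.12 in the DN2-derived arrays and 10.92, 10.44, 11.46, 11.05 and 11.26 in the GMP-derived arrays. The highest DN2-derived value was in array 5, and the difference was -6.10 ± 0.58 (adjusted p = 8.93e-07). Tlr4, the lipopolysaccharide receptor itself, differed by -4.04 ± 0.51 (adjusted p = 1.70e-05), and Tlr2, for bacterial lipoproteins, by -5.61 ± 0.66 (adjusted p = 7.99e-06). Adaptors of other activating receptors varied within the DN2-derived group. Tyrobp, the DAP12 adaptor shared by NK and myeloid receptors, read 11.89, 4.51, 11.58, 7.18 and 5.05 in the DN2-derived arrays and 13.24, 12.08, 13.11, 12.24 and 13.00 in the GMP-derived arrays. DN2-derived arrays 1 and 3, which were also highest for the NK list, came within 1 log2 unit of the lowest GMP-derived array, and the other 3 lay far below, with a difference of -4.69 ± 1.19 (adjusted p = 0.00549). Fcer1g, the Fc receptor gamma chain, had the same arrays on top, reading 11.43, 6.82, 11.08, 8.91 and 8.66 against 12.26, 11.67, 12.67, 11.65 and 12.66, with a difference of -2.80 ± 0.67 (adjusted p = 0.00384). Cd14, Tlr2, Tlr4, Tyrobp and Fcer1g were picked after their values were seen.

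Of the genes listed as Fc and paired inhibitory receptors, Cd72 and Clec2i were higher (3.37 ± 0.60 and 3.28 ± 0.70). Pilrb1 and Cd33, the latter a sialic acid binding receptor of myeloid cells, were lower (-6.24 ± 0.69 and -5.94 ± 0.42). The list name does not give the function of each member. The checkpoint receptors Pdcd1 (PD-1), Ctla4 and Icos, picked after their values were seen, were all higher. Icos, a costimulatory receptor of activated T cells, read 8.94, 7.42, 7.84, 8.46 and 8.91 in the DN2-derived arrays and 3.17, 3.40, 3.16, 3.07 and 3.19 in the GMP-derived arrays, a difference of 5.12 ± 0.25 (adjusted p = 4.75e-10). Ctla4 was less even, with 5.25 in array 3 and 10.24 in array 5 of the DN2-derived group, and differed by 4.22 ± 0.62 (adjusted p = 7.08e-05). Pdcd1 differed by 3.63 ± 0.40 (adjusted p = 4.11e-06). Vsir, which encodes the checkpoint ligand VISTA, went the other way, at -1.50 ± 0.20 (adjusted p = 2.91e-05).

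Integrins and the TNF superfamily were called in both directions in similar numbers. Of 40 integrins and adhesion molecules 10 were higher, among them the laminin receptor chain Itga6 (4.14 ± 0.56) and the gut-homing chain Itgb7 (3.41 ± 0.46), and 12 were lower, among them Itgam (-4.12 ± 0.79) and Alcam (-3.36 ± 0.51). Of 29 TNF superfamily members 8 were higher and 8 lower, or 5 and 5 with both leukemia means above the median. Cd27, a costimulatory receptor, differed by 5.72 ± 0.18 (adjusted p = 3.98e-12), and the death ligand Fasl by 3.93 ± 0.90 (adjusted p = 0.00283). Fasl ranged from 3.81 in array 2 to 10.17 in array 1 of the DN2-derived group, and all these values exceeded the highest GMP-derived value of 3.51. Tnfsf13b (BAFF) and Tnfsf13 (APRIL), B-cell survival factors made by myeloid cells, were lower by -6.10 ± 0.70 and -4.62 ± 0.82. Il1b, an inflammatory cytokine, was lower as well, at -4.88 ± 0.70 (adjusted p = 5.59e-05), in a list of 31 secreted cytokines and chemokines with 4 higher and 12 lower.

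Transcription factors were called in both directions, with different shares by list. Of 13 T-cell and innate lymphoid factors tested 8 (61.5%) were higher and none lower, with a median difference of 2.19. Only 6 of the 13 had both leukemia means above the median, and 2 of these were higher. Of 30 C/EBP, Runx and stem-cell factors 3 (10.0%) were higher and 12 (40.0%) lower, and its median of -0.06 lay close to that of all genes. The higher count was 5 without GMP-derived array 2 and 6 with array weights. Sox4, described next, belongs to this list and was higher.

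Ikzf2, the Ikaros family factor Helios, read 12.01, 12.04, 11.66, 12.30 and 11.82 in DN2-derived arrays 1 to 5 and 3.46, 3.67, 3.53, 3.48 and 5.10 in GMP-derived arrays 1 to 5. The DN2-derived arrays were high and even, only GMP-derived array 5 was above background, and the difference was 8.12 ± 0.90 (adjusted p = 4.09e-06). Sox4, an HMG-box factor of progenitors, read 11.01, 11.64, 10.41, 11.74 and 11.17 against 2.99, 5.15, 3.19, 3.11 and 3.36. GMP-derived array 2 was highest in its group, and the difference was 7.64 ± 0.44 (adjusted p = 3.29e-09). Eomes read 10.40, 10.16, 10.42, 11.19 and 10.53 against 3.19, 3.41, 3.33, 3.52 and 3.32 and Tbx21, the gene of T-bet, 10.13, 9.06, 10.49, 9.37 and 8.30 against 2.80, 2.80, 2.77, 2.76 and 2.76. Both T-box factors of cytotoxic lymphocytes were at background in every GMP-derived array, and they differed by 7.18 ± 0.24 (adjusted p = 8.89e-12) and 6.69 ± 0.42 (adjusted p = 1.09e-08).

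Cebpd, a C/EBP factor of granulocytes, read 3.81, 3.20, 2.70, 2.76 and 3.16 in the DN2-derived arrays and 10.83, 10.72, 11.24, 10.62 and 11.18 in the GMP-derived arrays. All DN2-derived arrays, array 1 included, were at background, and the difference was -7.79 ± 0.50 (adjusted p = 1.26e-08). Lmo2, a partner of stem-cell bHLH factors, read 6.64, 3.36, 3.62, 3.57 and 3.76 against 10.72, 11.33, 10.73, 10.89 and 10.39. DN2-derived array 1 stood apart from its group without reaching the GMP-derived values, and the difference was -6.62 ± 0.50 (adjusted p = 7.11e-08). Erg, an Ets factor of stem and early progenitor cells, read 2.64, 2.94, 2.73, 2.45 and 2.62 against 8.15, 8.24, 8.96, 8.13 and 8.85, with all DN2-derived arrays at background and a difference of -5.79 ± 0.57 (adjusted p = 1.25e-06). Nfe2, a factor of the megakaryocyte and myeloid lineages, read 5.26, 4.34, 4.54, 4.84 and 3.22 against 10.19, 9.65, 10.80, 9.46 and 10.50. The groups lay over 4 log2 units apart at their nearest arrays, and the difference was -5.68 ± 0.33 (adjusted p = 4.09e-09).

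**Figure D2:**
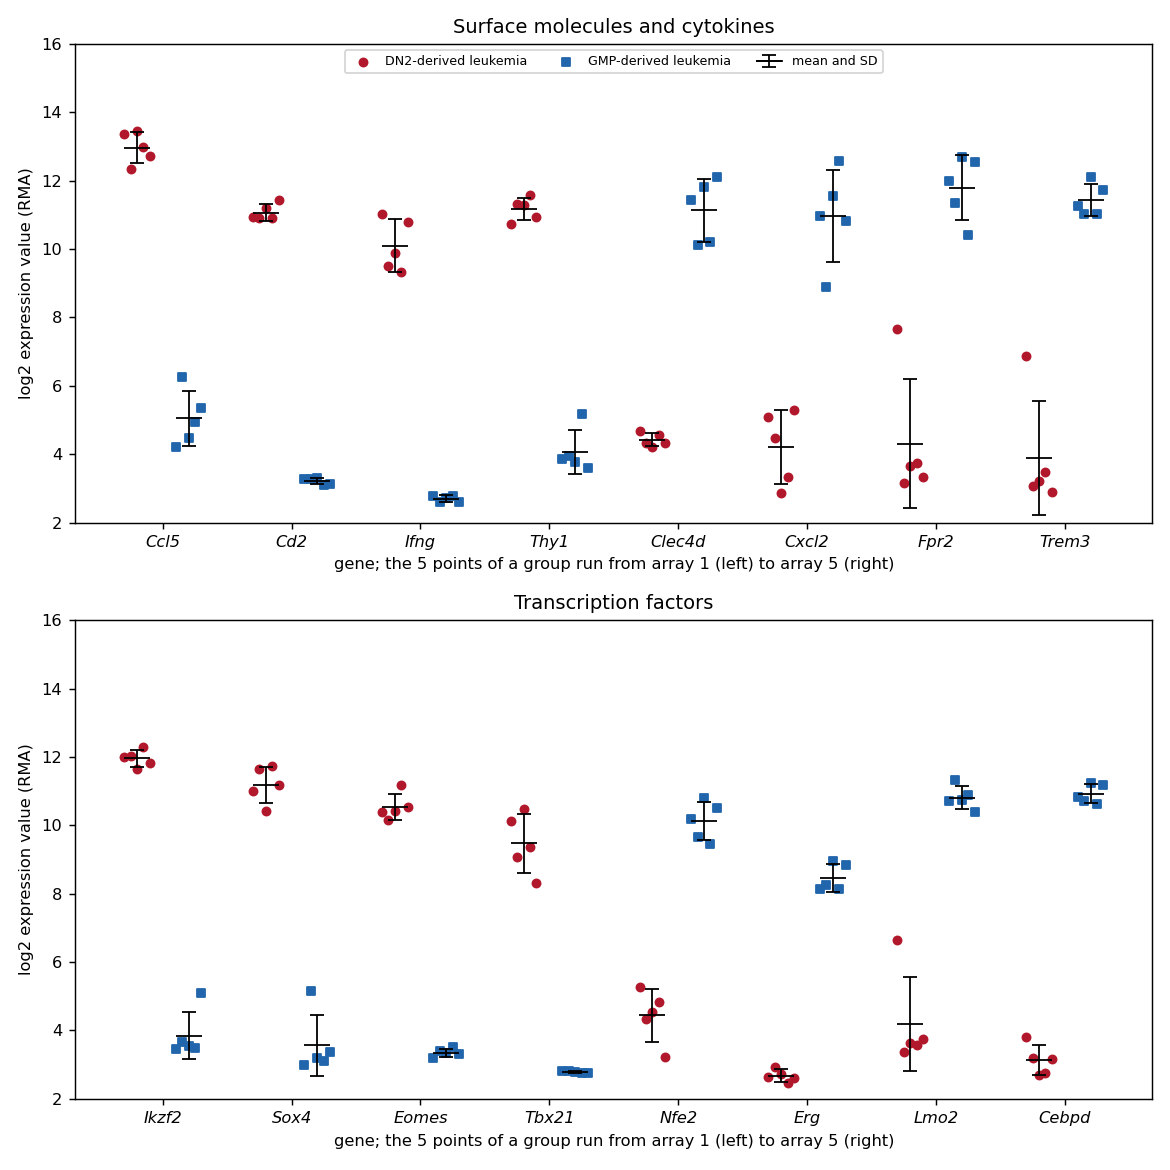
Log2 expression values of the 4 most raised and 4 most lowered surface or cytokine genes (top) and transcription factors (bottom), by array (red circles, DN2-derived; blue squares, GMP-derived; bars, mean and SD of 5 arrays). No gene overlaps between the groups, and DN2-derived array 1 lies above its group for Fpr2 (7.67), Trem3 (6.86) and Lmo2 (6.64).

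Within families the members went different ways. Of the Ets factors, 7 of 16 were higher and 3 lower. Ets1, a lymphoid member, differed by 3.19 ± 0.46 (adjusted p = 5.36e-05) and Elk3 by 2.41 ± 0.62 (adjusted p = 0.00582). Spi1, which encodes PU.1, the Ets factor of the myeloid lineage, read 6.56, 3.72, 3.96, 3.69 and 4.66 in the DN2-derived arrays and 9.95, 9.32, 9.71, 9.06 and 9.72 in the GMP-derived arrays. DN2-derived array 1 was the highest of its group, and the difference was -5.03 ± 0.43 (adjusted p = 3.06e-07). In the Id family, Id3, an inhibitor of E proteins, was higher (6.30 ± 0.48 (adjusted p = 8.19e-08)) and Id1 lower (-3.42 ± 0.36 (adjusted p = 2.61e-06)). Tcf12, an E protein, was higher by 1.58 ± 0.13, and Lyl1, a bHLH factor of stem cells, lower by -5.49 ± 0.42. Bcl11b, the T-commitment factor, was higher by 4.72 ± 0.68 (adjusted p = 5.74e-05) and its relative Bcl11a lower by -3.31 ± 0.50 (adjusted p = 9.49e-05). Bcl11b was not uniform in the GMP-derived group, where arrays 3 and 5 read 5.71 and 7.35 and the others 2.80 to 3.52.

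The lists of factors that respond to receptor stimulation had more genes higher than lower. Of 16 NF-kB and NFAT genes 9 (56.2%) were higher and none lower. Tnfaip3, the NF-kB feedback inhibitor A20, read 13.00, 12.58, 11.47, 12.18 and 12.85 in the DN2-derived arrays and 6.78, 6.65, 6.81, 10.60 and 7.33 in the GMP-derived arrays. GMP-derived array 4 was far above its group and below all DN2-derived arrays, and the difference was 4.79 ± 0.72 (adjusted p = 8.77e-05). Nfkbie, an inhibitor of the same pathway, differed by 2.70 ± 0.51 (adjusted p = 6.17e-04), and Relb, an NF-kB subunit, by 2.64 ± 0.47 (adjusted p = 3.65e-04). Of 29 AP-1, ATF, Maf and Egr factors 12 (41.4%) were higher and 5 (17.2%) lower, and 5 in each direction had no overlap between the arrays. The orphan receptors Nr4a2 and Nr4a3, which respond early to antigen receptor signals, differed by 6.47 ± 0.59 (adjusted p = 5.65e-07) and 4.57 ± 0.50 (adjusted p = 3.59e-06). The less bright probe sets of Nr4a3 gave 0.36 and -0.09, close to background. Bach2, a repressor that holds lymphocytes in a resting state, was higher by 5.00 ± 0.41, while Jdp2 and Mafg were lower by -2.42 ± 0.37 and -2.37 ± 0.27. Relb and Nr4a3 were picked after their values were seen.

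Stat4, which acts below the interleukin 12 receptor, was higher by 4.49 ± 0.57 (adjusted p = 1.64e-05), and Irf4 by 1.50 ± 0.24 (adjusted p = 1.62e-04), while Stat3 was lower by -1.14 ± 0.22 (adjusted p = 6.35e-04). Of 14 IRF and Stat factors 5 were higher, or 3 with the most variable probe set of each gene, and 2 lower. Zbtb7b, a factor of the CD4 lineage, was lower by -1.34 ± 0.21 in a list of 26 zinc finger regulators of which 11 were higher and 5 lower. The 34 KLF, Fox and nuclear receptor genes were near the background, with 5 higher and 8 lower, and 5 lower without DN2-derived arrays 1 and 3 or GMP-derived array 1 or with a replicate block, and 4 without GMP-derived array 5. Among them Nr3c2 (2.72 ± 0.36) and Sp4 (1.97 ± 0.21) were higher, and Klf5 (-2.11 ± 0.56) and Esrra (-0.83 ± 0.14) lower. Of 11 genes of the Myc, Max and Mxd network none was higher and 2 were lower, among them the Myc antagonist Mxi1 (-2.02 ± 0.18 (adjusted p = 3.75e-07)).

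Metabolic enzymes were lower in the DN2-derived leukemia in 3 lists above all. Of 20 arachidonate and eicosanoid enzymes 1 was higher and 14 (70.0%) lower, with a median difference of -1.70. Of the 20, 12 had both leukemia means above the median, and 7 of these were lower. Of 37 enzymes of the pentose phosphate pathway, NADPH supply and antioxidant defence 2 were higher and 22 (59.5%) lower, with a median of -0.81. Of 36 glycolysis and lactate genes 4 were higher (8 with array weights) and 20 (55.6%) lower, with a median of -0.69. Several of these enzymes are abundant in granulocytes, and the late neutrophil granule genes moved the same way in the same arrays, with means of 4.23 to 6.22 against 11.91 to 12.81; their part in the difference was not tested.

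Mgst1, a membrane glutathione transferase, read 7.48, 2.88, 3.07, 3.48 and 4.08 in DN2-derived arrays 1 to 5 and 12.27, 12.13, 12.74, 12.03 and 12.46 in GMP-derived arrays 1 to 5. DN2-derived array 1 was the highest of its group and far below the GMP-derived arrays, and the difference was -8.13 ± 0.64 (adjusted p = 1.21e-07). Sqor, a mitochondrial sulfide oxidase, read 4.95, 3.31, 3.66, 3.65 and 2.81 against 10.60, 10.08, 10.96, 10.00 and 10.96, with a difference of -6.84 ± 0.32 (adjusted p = 3.93e-10). Pygl, the glycogen phosphorylase of liver and leukocytes, read 6.62, 3.71, 4.76, 3.54 and 4.15 against 12.85, 12.29, 12.72, 11.87 and 12.86. The nearest arrays of the groups were over 5 log2 units apart, and the difference was -7.96 ± 0.45 (adjusted p = 2.87e-09). Gda, the guanine deaminase that degrades purines, read 6.93, 3.86, 3.83, 4.14 and 4.50 against 11.50, 11.26, 11.84, 11.09 and 11.67, again with DN2-derived array 1 on top of its group and a difference of -6.82 ± 0.53 (adjusted p = 8.97e-08).

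Fewer metabolic genes were higher. Ass1, which joins citrulline and aspartate on the way to arginine, read 7.74, 8.45, 8.20, 7.67 and 9.17 in the DN2-derived arrays and 3.40, 5.05, 3.92, 4.36 and 4.37 in the GMP-derived arrays, with a difference of 4.02 ± 0.42 (adjusted p = 2.04e-06). Lpin1, a phosphatidate phosphatase of lipid synthesis, read 10.93, 10.05, 10.76, 10.59 and 10.18 against 6.48, 6.65, 7.19, 4.76 and 7.90. GMP-derived array 4 was the lowest of its group, and the difference was 3.91 ± 0.51 (adjusted p = 2.39e-05). Elovl6, a fatty acid elongase, read 7.63, 7.23, 7.77, 7.33 and 6.52 against 3.07, 3.60, 3.62, 3.39 and 3.49, with the GMP-derived arrays at background and a difference of 3.86 ± 0.24 (adjusted p = 7.08e-09). Bcat1, a cytosolic branched-chain aminotransferase, read 6.88, 7.60, 7.65, 7.41 and 7.66 against 2.79, 2.56, 6.02, 2.90 and 4.36. GMP-derived array 3 came within 1 log2 unit of the DN2-derived arrays, and the difference was 3.71 ± 0.51 (adjusted p = 3.94e-05).

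Glycolytic genes differed by isoform. Hk3, a hexokinase of myeloid cells, was lower by -5.33 ± 0.42 (adjusted p = 1.26e-07) and Hk2 by -2.03 ± 0.24 (adjusted p = 6.94e-06). Of the phosphofructokinases, Pfkm (1.45 ± 0.17 (adjusted p = 7.10e-06)) and Pfkp (1.24 ± 0.16 (adjusted p = 1.79e-05)) were higher. Aldoa and Gapdh, whose enzymes act in nearly all cells, were lower by -1.46 ± 0.13 (adjusted p = 6.13e-07) and -0.76 ± 0.10 (adjusted p = 3.87e-05). Gapdh read 12.22, 12.15, 12.52, 12.05 and 12.25 in the DN2-derived arrays and 13.02, 13.12, 12.95, 12.99 and 12.90 in the GMP-derived arrays, so a small difference was even across the arrays. Ldhb, the lactate dehydrogenase subunit of oxidative tissues, was higher by 2.29 ± 0.55 (adjusted p = 0.00394), but GMP-derived array 4, at 7.26, overlapped the DN2-derived range of 7.05 to 7.79. Hk2, Aldoa, Gapdh and Ldhb were picked after their values were seen.

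Idh1, the cytosolic isocitrate dehydrogenase, read 8.58, 5.85, 6.56, 6.37 and 5.13 in the DN2-derived arrays and 10.39, 10.61, 10.79, 10.83 and 11.07 in the GMP-derived arrays, a difference of -4.24 ± 0.45 (adjusted p = 2.72e-06). Gsr, glutathione reductase, read 8.78, 7.85, 8.37, 7.77 and 7.54 against 11.89, 12.03, 12.15, 11.87 and 12.21, a difference of -3.97 ± 0.20 (adjusted p = 5.70e-10). Both groups were even for Gsr and lay far apart. In the pentose phosphate pathway Pgd, Taldo1 and Tkt differed by -1.83 ± 0.17 (adjusted p = 6.77e-07), -1.89 ± 0.17 (adjusted p = 5.30e-07) and -0.81 ± 0.10 (adjusted p = 1.26e-05). Gstp1 and Prdx2 were the 2 members called higher, at 1.02 ± 0.27 (adjusted p = 0.007) and 0.82 ± 0.17 (adjusted p = 0.00155). Idh1, Gsr, Pgd, Taldo1 and Tkt were picked after their values were seen.

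Genes of leukotriene synthesis were lower at each step named here. Pla2g4a, which releases arachidonate, differed by -4.59 ± 0.40 (adjusted p = 3.33e-07). Alox5, the lipoxygenase that acts next, read 4.44, 4.50, 4.47, 4.26 and 4.20 in the DN2-derived arrays and 10.25, 9.49, 10.18, 8.88 and 10.39 in the GMP-derived arrays. All DN2-derived arrays lay between 4.20 and 4.50, and the difference was -5.46 ± 0.27 (adjusted p = 5.02e-10). Alox5ap, its activating protein, was less even, reading 9.46, 4.71, 6.63, 5.14 and 5.34 against 12.89, 12.60, 13.05, 12.14 and 13.02. DN2-derived array 1 was the highest of its group there, and the difference was -6.48 ± 0.66 (adjusted p = 1.77e-06). Lta4h, which makes leukotriene B4, remained bright in all arrays, with means of 11.44 ± 0.51 and 13.01 ± 0.06 (SD, n = 5 each), and differed by -1.56 ± 0.20 (adjusted p = 1.94e-05). Ptgr1, which inactivates leukotriene B4 and prostaglandins, was lower too, at -6.19 ± 0.54 (adjusted p = 3.50e-07), and the epoxide hydrolase Ephx1 was the member called higher, at 2.93 ± 0.47 (adjusted p = 1.61e-04). Alox5, Pla2g4a and Lta4h were picked after their values were seen.

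**Figure D3:**
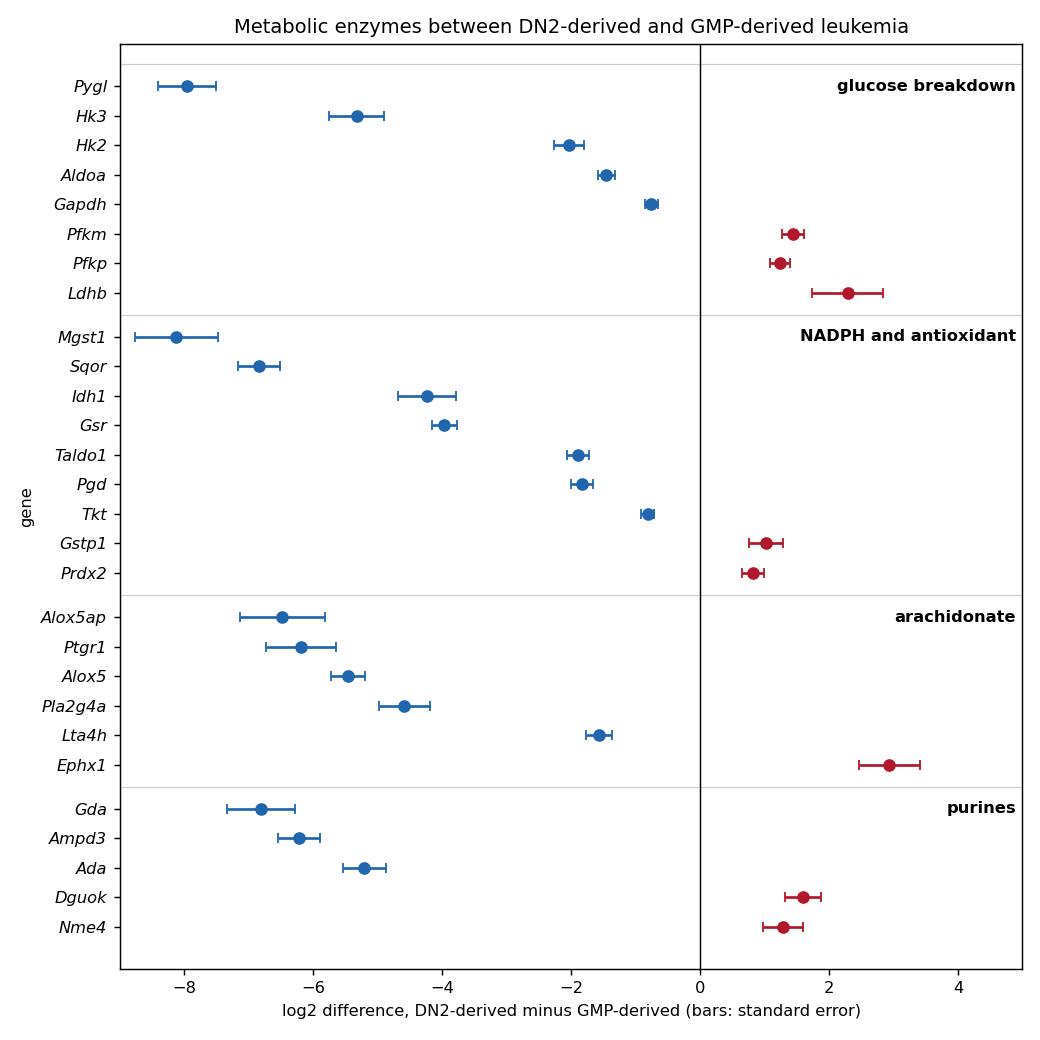
Log2 differences (DN2-derived minus GMP-derived, bars are standard errors) of the named enzymes in 4 groups, blue where lower and red where higher. The differences run from -8.13 (Mgst1) to 2.93 (Ephx1).

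Nucleotide genes were called in both directions. Ada, adenosine deaminase, read 5.97, 6.34, 6.93, 4.99 and 5.07 in the DN2-derived arrays and 10.87, 10.64, 11.42, 11.00 and 11.40 in the GMP-derived arrays, and was picked after its values were seen. The groups lay far apart, with a difference of -5.21 ± 0.33 (adjusted p = 1.14e-08). Ampd3, the AMP deaminase of blood cells, was lower by -6.22 ± 0.33 (adjusted p = 1.25e-09), while the salvage kinase Dguok (1.59 ± 0.28 (adjusted p = 3.31e-04)) and Nme4 (1.29 ± 0.31 (adjusted p = 0.00385)) were higher. Over the 40 nucleotide genes 5 were higher and 11 (27.5%) lower, with a median of 0.02, close to that of all genes. Without GMP-derived arrays 2 and 4, 9 were called higher, with a replicate block 8 and with array weights 11.

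The tricarboxylic acid cycle and sterol lists stood closer to the background. Of 30 genes of the cycle and glutamine use 4 were higher, with the citrate lyase Acly at 1.30 ± 0.15 and Sdhb at 0.70 ± 0.16, and 7 lower, with the mitochondrial enzymes Pck2 and Idh2 at -2.78 ± 0.24 and -2.72 ± 0.29. Without GMP-derived arrays 2 and 4, 8 genes of this list were called higher. Of 26 sterol genes 2 were higher and 6 lower. Npc2, a lysosomal cholesterol carrier, was higher by 0.53 ± 0.16 (adjusted p = 0.0157). This call was lost without DN2-derived arrays 1 and 3 (0.51, adjusted p = 0.0615), with the mean of all probe sets (0.60, adjusted p = 0.0874) and with the most variable probe set (0.86, adjusted p = 0.219). Apoe and Fdps were lower by -3.72 ± 0.63 and -1.28 ± 0.28. Apoe read 7.81 in DN2-derived array 1 and 4.60 to 4.79 in the other DN2-derived arrays.

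Of 39 fatty acid and triglyceride genes 7 were higher and 11 lower, with Lpcat2, which makes platelet-activating factor, at -5.59 ± 0.34 (adjusted p = 7.08e-09) and the triglyceride synthase Dgat2 at -5.59 ± 0.50 (adjusted p = 4.49e-07). Of 28 serine, one-carbon, arginine and polyamine genes 5 (17.9%) were higher and 6 (21.4%) lower, near the background. With both leukemia means above the median 3 were lower. The higher count was 8 with array weights and 3 without DN2-derived array 2 or GMP-derived array 1 or 5. Arg2, the mitochondrial arginase, was lower by -4.89 ± 0.74 (adjusted p = 9.21e-05) and at background in all DN2-derived arrays, while Prodh, proline dehydrogenase, was lower by -3.57 ± 0.61. Among 19 amino acid transporters, Slc7a6 was higher by 1.33 ± 0.29, and Slc43a3, a purine base carrier of an amino acid transporter family, and the cystine carrier Slc7a11 were lower by -4.64 ± 0.23 and -0.98 ± 0.17. Among 30 heme and iron genes 2 were higher and 10 (33.3%) lower. Slc40a1, the iron exporter ferroportin, read 4.76, 3.48, 3.59, 3.54 and 3.26 in the DN2-derived arrays and 10.63, 9.69, 11.19, 9.61 and 11.03 in the GMP-derived arrays. No DN2-derived array was near the GMP-derived range, and the difference was -6.71 ± 0.45 (adjusted p = 1.83e-08). The metalloreductase Steap4 was lower by -3.50 ± 0.79 and Alad, which makes porphobilinogen, higher by 2.98 ± 0.31.

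Kinases and adaptors of antigen receptor signalling were called in both directions. Of 47 Src, Syk and Tec kinases and adaptors 18 (38.3%) were higher and 19 (40.4%) lower, and the median difference was 0.11. With both leukemia means above the median, 12 of 36 were higher and 17 lower. Of 43 phospholipase C, protein kinase C and calcium genes 18 (41.9%) were higher and 15 (34.9%) lower, and 11 of the 34 with both leukemia means above the median were higher. Over all members tested, both shares of each list exceeded the background of 21.0% and 18.8%.

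Prkcq, the protein kinase C isoform of the T-cell synapse, read 10.46, 10.26, 10.35, 10.69 and 9.45 in DN2-derived arrays 1 to 5 and 3.41, 3.34, 3.35, 3.34 and 4.04 in GMP-derived arrays 1 to 5. The groups did not overlap, and the difference was 6.74 ± 0.50 (adjusted p = 5.71e-08). Skap1, an adaptor of T-cell adhesion, read 9.98, 10.03, 10.00, 10.04 and 9.53 against 3.49, 3.42, 3.39, 3.42 and 3.04. Array 5 was the lowest in each group, and the difference was 6.56 ± 0.18 (adjusted p = 8.17e-13). Txk, a Tec kinase of T and NK cells, read 9.74, 8.70, 9.98, 8.93 and 9.20 against 3.51, 3.35, 3.19, 3.37 and 3.65, a difference of 5.90 ± 0.24 (adjusted p = 5.11e-11). Rras2, a Ras-like GTPase, read 9.28, 9.29, 9.37, 8.73 and 9.49 against 3.48, 3.44, 3.24, 3.55 and 3.40, with all GMP-derived arrays at background and a difference of 5.81 ± 0.16 (adjusted p = 1.03e-12).

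Mapk13, the p38 delta kinase, read 3.79, 3.61, 4.69, 3.93 and 4.93 in the DN2-derived arrays and 10.94, 10.60, 11.13, 9.67 and 10.91 in the GMP-derived arrays. GMP-derived array 4 was the lowest of its group and still far above the DN2-derived arrays, with a difference of -6.46 ± 0.53 (adjusted p = 1.72e-07). Btk, the Tec kinase of B and myeloid cells, read 7.14, 4.17, 4.86, 3.99 and 3.88 against 10.31, 10.28, 10.05, 10.35 and 10.28. The GMP-derived arrays were even, DN2-derived array 1 was high in its group, and the difference was -5.45 ± 0.48 (adjusted p = 3.65e-07). Fes, a tyrosine kinase of myeloid cells, read 6.41, 3.96, 5.12, 4.35 and 3.94 against 10.78, 9.73, 10.34, 9.43 and 10.57, a difference of -5.41 ± 0.40 (adjusted p = 6.31e-08). Rhou, a small GTPase, read 4.17, 4.28, 4.68, 4.29 and 4.39 against 9.58, 9.11, 10.37, 9.17 and 10.10. All DN2-derived arrays lay within 4.17 to 4.68, and the difference was -5.30 ± 0.41 (adjusted p = 9.57e-08).

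**Figure D4:**
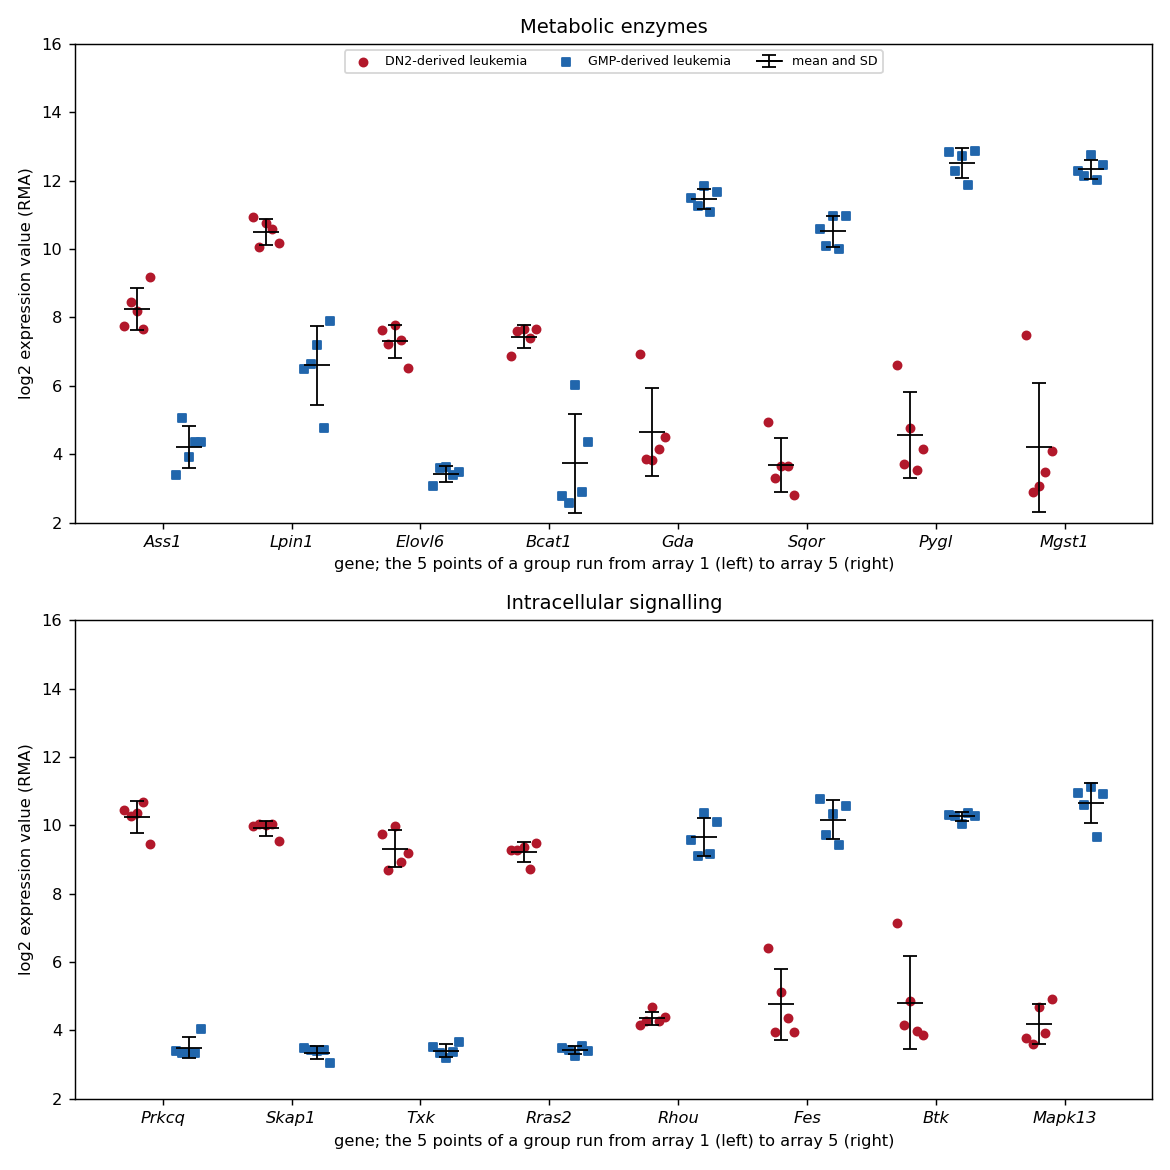
Log2 expression values of the 4 most raised and 4 most lowered metabolic (top) and signalling genes (bottom), by array (red circles, DN2-derived; blue squares, GMP-derived; bars, mean and SD of 5 arrays). The groups do not overlap for any gene, and GMP-derived array 3, at 6.02, is the value of Bcat1 nearest to the other group.

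Related kinases took opposite directions. Of the Src kinases, Fyn, which acts at the T-cell receptor, read 10.76, 9.70, 10.46, 10.22 and 9.98 in the DN2-derived arrays and 6.34, 4.99, 4.62, 5.22 and 5.63 in the GMP-derived arrays, a difference of 4.86 ± 0.32 (adjusted p = 1.33e-08). Fgr, the Src kinase of granulocytes and monocytes, read 7.21, 4.47, 5.39, 4.79 and 3.21 and 10.08, 7.60, 9.77, 7.46 and 9.94, a difference of -3.95 ± 0.70 (adjusted p = 3.58e-04). DN2-derived array 1, at 7.21, came closest to the lowest GMP-derived array, at 7.46. Of the Tec kinases, Txk and Tec (2.74 ± 0.36 (adjusted p = 2.46e-05)) were higher and Btk lower. Of the protein kinase C isoforms, Prkch (5.33 ± 0.39 (adjusted p = 4.74e-08)) was higher with Prkcq, while Prkcd (-1.80 ± 0.19 (adjusted p = 3.21e-06)) and Prkcb (-1.65 ± 0.31 (adjusted p = 5.56e-04)) were lower. Plcg2, the phospholipase C gamma of B and myeloid cells, differed by -3.67 ± 0.64 (adjusted p = 3.36e-04), and among the DN2-derived arrays it read 9.14 in array 1, 9.40 in array 3 and between 5.24 and 6.42 elsewhere. The diacylglycerol kinase Dgkh was lower by -3.06 ± 0.51. Fyn, Fgr, Prkcd and Prkcb were picked after their values were seen.

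Ras and MAP kinase genes were also called in both directions, with 15 of 46 (32.6%) higher and 13 (28.3%) lower. With both leukemia means above the median 9 were higher, and with array weights 20 were lower. Rasgrp1, the Ras activator below the T-cell receptor, was higher by 5.60 ± 0.36 (adjusted p = 1.26e-08), and Dusp6, the phosphatase that limits ERK, lower by -2.39 ± 0.51 (adjusted p = 0.00174). In the PI3K, Akt and mTOR list 10 of 33 were higher and 10 lower. Sesn1, a stress-induced inhibitor of mTORC1, was higher by 3.31 ± 0.23 (adjusted p = 2.52e-08). Deptor, another mTOR inhibitor, was lower by -3.56 ± 0.43 (adjusted p = 1.05e-05), and Pik3r6, a regulatory subunit of PI3K gamma, by -3.64 ± 0.44 (adjusted p = 1.04e-05).

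Of 52 G-protein and cyclic AMP genes 15 were higher and 13 lower. Rgs1, which ends chemokine receptor signals, differed by 5.57 ± 0.80 (adjusted p = 5.91e-05), with GMP-derived arrays 4 and 5 at 8.07 and 6.92 and the other GMP-derived arrays at 3.99 to 4.71. Rgs16, of the same family, differed by 3.61 ± 0.47 (adjusted p = 2.31e-05). The G-protein subunits Gng12 and Gnaq were lower by -5.26 ± 0.25 (adjusted p = 4.29e-10) and -4.60 ± 0.26 (adjusted p = 2.41e-09). Rhoh, a GTPase of lymphocytes, and the exchange factor Vav2 were higher by 3.35 ± 0.31 and 1.98 ± 0.26, and Tiam1, an exchange factor of Rac, lower by -4.59 ± 0.20 (adjusted p = 1.34e-10).

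Of 23 Jak, Socs and Pim genes 6 (26.1%) were higher, near the 21.0% of all genes, and none lower, so fewer were called than the 39.8% of all genes. Higher were among others the survival kinase Pim2 (3.24 ± 0.18 (adjusted p = 3.29e-09)) and Jak1 (2.18 ± 0.23 (adjusted p = 2.95e-06)). Of 47 TGF-beta, Wnt and Notch genes 17 (36.2%) were higher and 6 (12.8%) lower. Bambi, a decoy of TGF-beta family receptors, was higher by 3.70 ± 0.52 (adjusted p = 4.93e-05) and the Wnt receptor Fzd5 by 3.00 ± 0.31 (adjusted p = 2.37e-06). Dtx4, a Deltex ubiquitin ligase, and the receptor Bmpr1a were lower by -3.00 ± 0.41 (adjusted p = 3.70e-05) and -2.31 ± 0.31 (adjusted p = 3.17e-05).

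Outside the lists the 6 largest rises and the 6 largest falls were in genes of several kinds. Ms4a4b, a tetraspanning protein of T cells, read 13.11, 12.99, 13.07, 13.03 and 12.08 in the DN2-derived arrays and 2.97, 3.74, 2.96, 4.42 and 2.98 in the GMP-derived arrays, a difference of 9.44 ± 0.34 (adjusted p = 1.88e-11). The GTPases Gimap6, Gimap4 and Gimap8, which act in lymphocyte survival, were higher by 8.11 ± 0.15, 7.45 ± 0.32 and 7.42 ± 0.48. For Gimap6 the DN2-derived arrays lay between 11.06 and 11.42 and the GMP-derived arrays between 3.07 and 3.31. Dpysl2 and Ablim1, proteins of the cytoskeleton, were higher by 7.62 ± 0.43 and 7.31 ± 0.24. In the other direction Chil4, a chitinase-like protein, read 6.22, 3.65, 3.79, 3.95 and 6.72 against 13.75, 13.67, 13.82, 13.39 and 13.83, a difference of -8.83 ± 0.59 (adjusted p = 2.07e-08). Stfa2l1, of the stefin A protease inhibitors, Slfn4, Ceacam10 and Ifitm6 were lower by -8.40 ± 0.44, -8.10 ± 0.69, -8.04 ± 0.72 and -7.93 ± 0.79. Sgms2, a sphingomyelin synthase, read 2.83, 3.09, 2.52, 3.02 and 3.03 against 10.39, 10.52, 11.11, 10.84 and 11.12, so all DN2-derived arrays were at background and the difference was -7.90 ± 0.23 (adjusted p = 1.41e-12). Stefin and Gimap genes have close relatives whose transcripts a probe set may share, so values of single members are uncertain.

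Promoter sequences were read for the genes called, since a C/EBP factor was the transcription factor with the largest fall. The 250 bases upstream of the RefSeq start (GRCm38.p6) were available for 9445 of the 11629 genes tested, with 12085 promoters in all. The C/EBP motif, searched as TTGCNNAA, was in 9.84% of 2328 promoters of genes called lower, in 6.52% of 2563 promoters of genes called higher and in 7.76% of all promoters. The PU.1 motif GAGGAAGT was in 2.62%, 2.58% and 2.61%, the E-box CACGTG, which Myc proteins bind, in 8.12%, 7.80% and 8.19%, the Runx motif TGTGGT in 12.3%, 11.7% and 11.3%, and the GATA motif AGATAA in 5.54%, 7.10% and 6.08%. All motifs were searched on both strands, and a promoter that holds several was counted once for each. The shares describe letters in these windows and carry no test. Among the named genes with a promoter the C/EBP motif was in 11 of 73 called lower and 9 of 64 called higher, so it was in both sets. Shown are 4 promoters of genes among those with the largest fall and 1 of a gene with a large rise, 5′ to 3′ on the strand of the gene, with the motif in capitals.
Mgst1: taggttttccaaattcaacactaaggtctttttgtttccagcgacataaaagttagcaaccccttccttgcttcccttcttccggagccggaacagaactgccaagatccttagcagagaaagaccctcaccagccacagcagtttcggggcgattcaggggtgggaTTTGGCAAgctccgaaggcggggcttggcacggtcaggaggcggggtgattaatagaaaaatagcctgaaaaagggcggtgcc
Gda: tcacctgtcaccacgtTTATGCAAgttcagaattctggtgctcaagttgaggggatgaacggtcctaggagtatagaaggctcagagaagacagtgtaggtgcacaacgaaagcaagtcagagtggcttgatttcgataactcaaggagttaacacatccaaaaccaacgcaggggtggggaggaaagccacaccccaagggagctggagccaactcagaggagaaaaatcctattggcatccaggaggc
Erg: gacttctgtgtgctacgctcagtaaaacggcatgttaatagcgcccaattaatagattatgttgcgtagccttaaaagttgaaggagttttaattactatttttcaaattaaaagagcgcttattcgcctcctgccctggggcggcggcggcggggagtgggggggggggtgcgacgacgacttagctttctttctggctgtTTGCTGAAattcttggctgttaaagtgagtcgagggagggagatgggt
Chil4: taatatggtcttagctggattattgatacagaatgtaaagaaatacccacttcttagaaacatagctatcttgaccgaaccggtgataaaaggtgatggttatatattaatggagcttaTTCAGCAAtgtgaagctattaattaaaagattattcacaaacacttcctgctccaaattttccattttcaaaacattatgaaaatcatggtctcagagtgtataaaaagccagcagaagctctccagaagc
Rras2: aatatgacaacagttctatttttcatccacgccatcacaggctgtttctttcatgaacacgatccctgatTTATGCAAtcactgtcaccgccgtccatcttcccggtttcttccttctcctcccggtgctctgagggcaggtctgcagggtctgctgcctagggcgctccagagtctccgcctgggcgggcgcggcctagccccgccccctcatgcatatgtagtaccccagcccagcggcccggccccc
They lie at chr6:138140277-138140526 (plus strand) for the first of 2 listed starts of Mgst1 and at chr19:21472662-21472911 (minus strand) for Gda. The others lie at chr16:95586594-95586843 (minus strand) for the first of 3 listed starts of Erg, chr3:106219480-106219729 (minus strand) for Chil4 and chr7:114117782-114118031 (minus strand) for Rras2. The motif starts 83 bases before the start of Mgst1, 234 before Gda, 48 before Erg, 131 before Chil4 and 180 before Rras2, whose expression was higher in the DN2-derived leukemia (5.81 ± 0.16).

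The healthy cells of the same origins gave a comparison whose differences share no array with those of the leukemias. Its standard errors came from the fit of all 17 arrays and so also hold the spread of the leukemia arrays. Of the 11629 genes 1302 (11.2%) were called between healthy DN2 and healthy GMP, and 784 were called in both comparisons, 16.9% of the leukemia calls and 60.2% of the healthy calls. Of these 784, 734 (93.6%) had the same direction, 360 higher and 374 lower in DN2, and 50 the opposite direction. The healthy calls and the shared calls of the same direction both fell when any 1 healthy array was left out, which left 1 array in its group. A fit of the 4 healthy arrays alone with a replicate block gave 5131 healthy calls and 2160 shared ones. That fit changed the set of arrays and added the block, and the part of each was not tested. Over all genes tested the sign was the same in 63.6%.

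Among the named genes, 61 of 175 were called between the healthy cells, and 59 of these in the same direction as in leukemia. Thy1 had means of 10.00 ± 0.07 and 3.92 ± 0.03 in healthy DN2 and GMP (SD, n = 2 each), a difference of 6.08 ± 0.41 (adjusted p = 1.09e-07). Bcl11b differed by 7.84 ± 1.08 (adjusted p = 1.72e-04), P2ry10 by 6.60 ± 0.73 (adjusted p = 2.00e-05) and Skap1 by 5.03 ± 0.28 (adjusted p = 1.07e-08). On the other side Trem3 differed by -8.27 ± 1.18 (adjusted p = 2.47e-04), Gda by -6.95 ± 0.83 (adjusted p = 4.72e-05), Cebpd by -6.53 ± 0.79 (adjusted p = 5.46e-05) and Hk3 by -5.54 ± 0.67 (adjusted p = 5.32e-05). The exceptions in direction were Pfkp and Deptor. Pfkp was lower in healthy DN2 than in healthy GMP, at -2.58 ± 0.25 (adjusted p = 5.27e-06), and Deptor higher, at 2.52 ± 0.68 (adjusted p = 0.0255).

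Other large differences between the leukemias were not called between the healthy cells. Cd2 had means of 3.16 ± 0.16 and 3.44 ± 0.07, all at background, and Eomes 3.52 ± 0.36 and 3.24 ± 0.11 and Tbx21 2.65 ± 0.10 and 2.86 ± 0.11 (SD, n = 2 each) were equally low in both. Their healthy differences were -0.28 ± 0.31 (adjusted p = 0.688), 0.28 ± 0.39 (adjusted p = 0.757) and -0.21 ± 0.67 (adjusted p = 0.923). Fpr2, at 3.29 ± 0.23 and 3.16 ± 0.23, and Stfa2l1, at 2.84 ± 0.01 and 2.90 ± 0.13, were at background in both healthy populations. Btk, at 10.08 ± 0.05 and 10.29 ± 0.11, and Nfe2, at 10.59 ± 0.02 and 10.16 ± 0.12, were high in both healthy populations, and of the 5 groups the DN2-derived leukemia had the lowest mean of each. Clec4d was intermediate in both, at 8.56 ± 0.09 and 8.25 ± 0.13. With 2 arrays in each healthy group and standard errors that hold the leukemia spread, a difference not called is not shown to be absent. Ikzf2 had means of 10.50 ± 0.14 and 7.66 ± 0.21 in healthy DN2 and GMP (SD, n = 2 each). Its healthy difference of 2.85 ± 1.41 (adjusted p = 0.247) was not called.

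**Figure D5:**
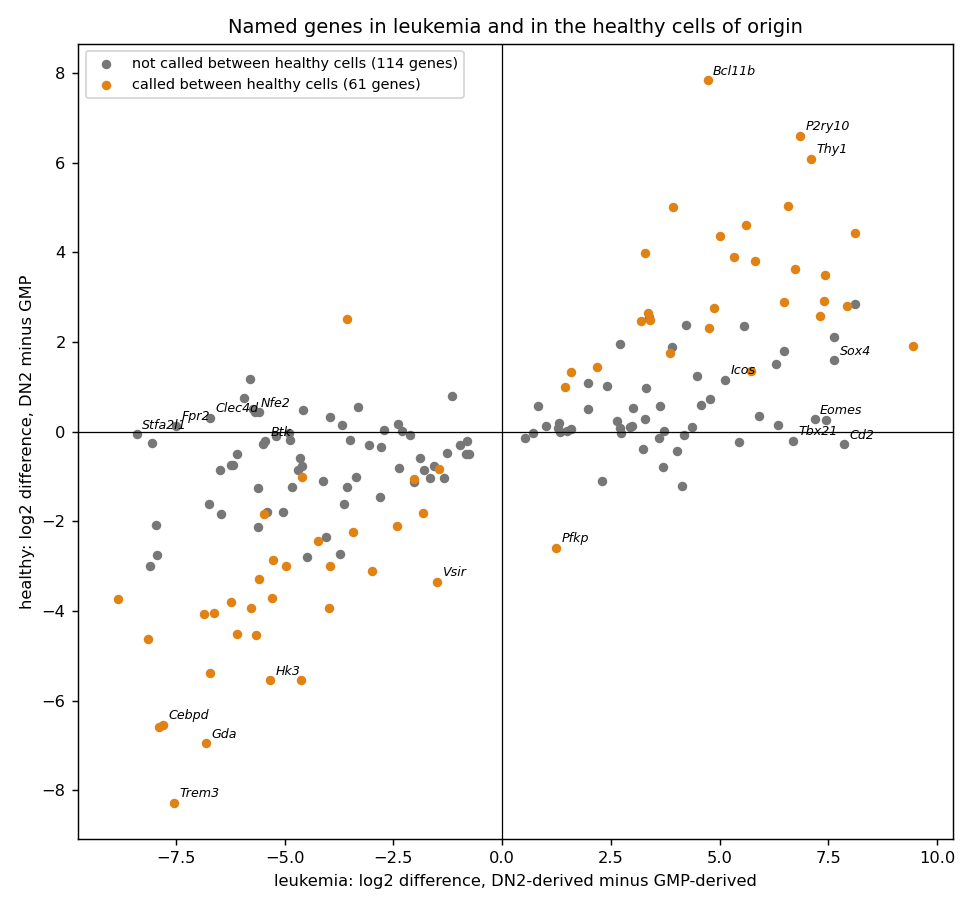
Log2 difference of 175 named genes between DN2-derived and GMP-derived leukemia (x axis) and between healthy DN2 and GMP (y axis), with orange points for the 61 genes called between healthy cells and grey for the other 114. Cd2, Eomes, Tbx21, Fpr2 and Stfa2l1 lie far from 0 on the x axis and near 0 on the y axis, and Pfkp (1.24 and -2.59) lies in the opposite corner from most called genes.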

How the data were processed

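The authors deposited log2 values per probe set of an Affymetrix mouse array, hybridised with 300 ng of RNA per the labels, and the submitters' processing notes name RMA and affy. The sources used here do not give versions or say whether arrays were normalized together. Of 45141 probe sets, 104 controls were left out, 28898 had 1 gene symbol in the platform annotation, 551 had several and 15588 were not listed. 28689 matched RefSeq (GRCm38.p6) by Entrez identifier. A gene took its brightest probe set (17097 genes) and was tested if at least 1 group mean lay above 3.83, the median of the table. Differences came from limma 3.58.1 (lmFit, eBayes; R 4.3.3) with all 17 arrays in 1 fit, two-sided, Benjamini-Hochberg adjusted over 11629 genes, and were tested on simulated data. Precision is limited by how many arrays each group has.

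The members and lists were chosen with earlier results of these data known. Named are, among called genes whose groups do not overlap, the 4 largest rises and falls per theme, 2 per list and 6 outside the lists, leaving out granule, T-cell receptor, NK, B-cell and sex-linked markers and unnamed loci. Where a list held no such gene, its called genes were taken. Itgam, Cd3e, Mycn, Bcl2 and Eif2s3y check the labels, and 31 genes were picked after their values were seen. Alternatives were other probe sets, filters, scalings, variance models, array sets and a replicate block. The block was fitted within the 10 DN2-derived and GMP-derived leukemia arrays alone or within the 4 healthy arrays alone. The counts of 1 signalling list are not reported here.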

Additional observations from a re-analysis of the deposited data

Results flagged for a closer look

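In a group of 5 arrays, the highest or lowest array was set against the other 4, and its gap to the nearest was compared with the whole range (Dixon's test at the 95% level). Chance passes this bound in about 1 in 20 groups. Over 178 named genes and both leukemia groups, 356 groups in all, 40 arrays passed it. The test takes no account of background, so some of the flagged values lie close to the array medians.

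DN2-derived array 1 held 17 of these 40, and each time it was the highest of its group. Among receptors and cytokines it was high in Trem3 (6.86 against 2.88 to 3.48) and Fpr2 (7.67 against 3.16 to 3.73), and in Csf2rb (6.90 against 3.30 to 3.98), Hcar2 (4.30 against 3.35 to 3.49), Pilrb1 (8.55 against 4.01 to 4.54) and Il1b (6.44 against 4.20 to 4.73). Among factors it was high in Lmo2 (6.64 against 3.36 to 3.76) and highest, though close to background, in Klf5 (3.93 against 3.40 to 3.55). Among enzymes, carriers and signalling genes it was high in Mgst1 (7.48 against 2.88 to 4.08) and Gda (6.93 against 3.83 to 4.50), in Lpcat2 (5.77 against 4.23 to 4.36), Apoe (7.81 against 4.60 to 4.79) and Slc40a1 (4.76 against 3.26 to 3.59), in Deptor (4.99 against 3.10 to 3.54) and in Pla2g4a (4.88 against 2.87 to 3.43). It was high as well in Ifitm6 (7.90 against 3.18 to 4.09) and Tlr2 (5.91 against 3.28 to 4.02). The same array had a mean of 6.77 over the monocyte, macrophage and dendritic list, against 3.69 to 5.30 in the other DN2-derived arrays, and of 6.22 over the late neutrophil granule list, against 4.23 to 5.33; the part of such cells in its values was not tested.

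DN2-derived array 5 held 8. It was the lowest of its group in Skap1 (9.53 against 9.98 to 10.04), Irf4 (4.63 against 5.25 to 5.45), Ms4a4b (12.08 against 12.99 to 13.11), Gimap8 (8.86 against 10.84 to 11.30), Lta4h (10.57 against 11.52 to 11.87) and Taldo1 (9.83 against 10.37 to 10.53), and the highest in Ccr1 (3.37 against 2.90 to 3.00) and Stfa2l1 (5.33 against 2.79 to 2.99). DN2-derived array 4 was lowest in Rras2 (8.73 against 9.28 to 9.49) and highest in Cd33 (4.76 against 4.02 to 4.23).

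In the GMP-derived group, array 2 was highest in Sox4 (5.15 against 2.99 to 3.36) and Csf2rb (10.72 against 9.91 to 10.14). Array 3 was lowest in Btk (10.05 against 10.28 to 10.35) and Tec (5.63 against 6.89 to 7.22). Array 4 was highest in Thy1 (5.19 against 3.59 to 3.95), Tnfaip3 (10.60 against 6.65 to 7.33) and Bambi (3.88 against 3.13 to 3.32) and lowest in Stfa2l1 (10.94 against 11.97 to 12.15). Array 5 was highest in Ikzf2 (5.10 against 3.46 to 3.67) and Prkcq (4.04 against 3.34 to 3.41) and lowest in Skap1 (3.04 against 3.39 to 3.49). The Y-linked Eif2s3y was high in DN2-derived array 2 (10.05 against 2.72 to 2.92) and GMP-derived array 2 (9.90 against 2.75 to 2.84).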

How the results depend on the processing

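Over the alternatives run on it, the count of genes called between the leukemias ran from 3706 to 5799, against 4628 of 11629 tested. The lowest count came with both leukemia means above the median, where 9425 genes were tested. The highest came with array weights, where 11629 were tested. Requiring a fold of at least 2 left 2762. Leaving out 1 leukemia array gave 4150 to 4622 calls. Of the 175 named genes that were called, 174 had the same call and direction under every one of the 23 alternatives that held them, and the exception, Npc2, is given in the report. Bcl2, not called, changed sign with the mean of its probe sets (0.65) and with its most variable probe set (2.38). Eif2s3y, not called, changed sign without DN2-derived array 2 (-1.37) or without GMP-derived array 1 (-0.29), 3 (-0.29), 4 (-0.27) or 5 (-0.30), and stood at 1.49 without GMP-derived array 2. The cause of these changes was not tested.

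Deviations from the group means correlated at -0.12 to 0.16 between same-numbered leukemia arrays and at -0.18 to 0.20 between differently numbered ones. Of the 5 DN2-derived arrays, 3 correlated best with the GMP-derived array of their own number. Eif2s3y was high in array 2 of both groups. These values do not settle whether the numbers pair the arrays. Within the 10 DN2-derived and GMP-derived arrays alone, a replicate block gave 4039 calls, against 4329 without it. Within the 4 healthy arrays alone, a replicate block gave 5131 calls, and 2160 genes called in both comparisons with the same direction. That fit also left out the leukemia arrays, and the healthy arrays alone were not fitted without a block. The part of the block in this change was not tested. Leaving out 1 healthy array left 602 to 785 healthy calls and 329 to 434 shared ones. Of 74 counts of called members by list, 18 moved by over 1.5 times under at least 1 alternative. Only moves with 5 or more calls in the main fit or in the alternative were counted. With 5 leukemia and 2 healthy arrays a group, the number of arrays limits the precision, and a difference against a group near background may be understated.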

Other observations

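The 3 arrays labelled LSK-derived leukemia were not alike, and arrays 2 and 3 were near the healthy cells in Mycn (4.91 and 4.22, against 12.82 in array 1), so no level is drawn for an LSK-derived leukemia as a group. Cebpd read 8.00, 11.05 and 11.67 in these arrays, Trem3 8.85, 12.20 and 12.37, and Pygl 12.40, 12.21 and 12.68. Ccl5 read 10.17, 11.35 and 11.23, Ms4a4b 8.51, 9.80 and 9.85, and Dpysl2 7.64, 10.55 and 10.73, each above every GMP-derived array and below every DN2-derived array. Ephx1, at 4.14, 4.33 and 4.72, was below every array of both groups. These 7 genes were picked after their values were seen, and the levels are descriptions with no test.

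Among the 1514 genes called lower whose arrays did not overlap, the DN2-derived array nearest to the GMP-derived group was array 1 in 414 genes (27.3%), array 3 in 396 (26.2%) and array 2, 4 or 5 in 226, 232 and 246. Among the 1637 called higher, the nearest was array 5 in 491 (30.0%), array 3 in 451 (27.6%) and array 1 in 313 (19.1%).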
